A study of Mus musculus with 2 samples.

Results

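The genes described are 10 markers of vascular smooth muscle cells and pericytes, the mural cells that wrap blood vessels: Tagln, Cnn1, Smtn, Myocd, Rgs5, Pdgfrb, Notch3, Cspg4, Abcc9 and Vtn. They were chosen by exact gene symbol, and all 10 were found among the 55536 annotated genes of the deposited tables. Total RNA of whole heart from male B6CASTF1/J mice, the first-generation cross of C57BL/6J and CAST/EiJ, aged 18 to 20 months, was sequenced. The labels name 2 libraries, biological replicates 1 and 2, and give 300 ng of starting RNA, synthetic ERCC RNAs added as spike-ins, and a stranded preparation with less ribosomal RNA. Neither library carries a treatment, and both form 1 group, so there was no comparison of conditions. Both carry the same donor identifier under different sample identifiers, and a difference between them may be technical in part. Depth was alike, with 39053830 expected counts for replicate 1 and 37447840 for replicate 2.

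Smooth muscle cells of arteries hold a contractile apparatus of smooth muscle actin and myosin, with actin-binding proteins such as transgelin, calponin and smoothelin. Myocardin switches these genes on through serum response factor, and cardiac muscle also makes myocardin. Pericytes lie on capillaries, are recruited by endothelial PDGF-B through the PDGF receptor beta, and are known in heart for Rgs5 and for the ATP-sensitive potassium channel of Kcnj8 and Abcc9.

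Several of these genes make more than 1 protein, and the heart holds both cardiac muscle and vessels, so the sequences that set the forms apart are given first. Abcc9 encodes SUR2, the sulfonylurea receptor subunit of ATP-sensitive potassium channels. It lies on mm10 chr6:142587862-142702315 on the minus strand. Its coding sequence ends in either of 2 exons, each with 135 coding bases, after 4503 coding bases that the transcripts Abcc9-202 and Abcc9-203 share. The upstream exon lies at chr6:142594008-142594142 and the downstream exon at chr6:142590369-142590503. SUR2A, the form known from cardiac muscle, and SUR2B, the form known from vascular smooth muscle, differ in this end, and that of SUR2B is known to resemble SUR1, the product of Abcc8. The last 126 coding bases of each Abcc9 end are shown beside those of Abcc8 (chr7:46104627-46104752, minus strand), 5′ to 3′ as in the mRNA. Capitals mark bases equal to Abcc8 at the same distance from the end.
Abcc9 upstream last coding exon (chr6:142594008-142594133): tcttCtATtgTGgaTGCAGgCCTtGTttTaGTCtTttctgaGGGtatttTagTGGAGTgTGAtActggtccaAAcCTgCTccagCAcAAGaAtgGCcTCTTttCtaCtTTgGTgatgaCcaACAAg
Abcc9 downstream last coding exon (chr6:142590369-142590494): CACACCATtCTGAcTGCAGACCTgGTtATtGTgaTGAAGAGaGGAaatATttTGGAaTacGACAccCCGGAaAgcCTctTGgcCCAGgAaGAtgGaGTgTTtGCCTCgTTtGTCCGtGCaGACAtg
Abcc8 end of coding sequence: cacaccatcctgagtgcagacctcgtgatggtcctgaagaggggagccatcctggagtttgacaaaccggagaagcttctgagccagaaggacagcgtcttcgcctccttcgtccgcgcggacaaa

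The downstream end matched Abcc8 at 88 of 126 bases (69.8%) and the upstream end at 63 of 126 (50%). By this likeness the downstream exon is the SUR2B end, and the upstream exon the SUR2A end. Of the 4 transcripts with the upstream end, 3 also hold the downstream exon as untranslated sequence, so reads inside the downstream exon fit both forms.

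Smtn and Myocd differ at the start or within the coding sequence. The transcript Smtn-201 opens inside the gene, with a first coding exon of 399 bases at chr11:3527428-3527826 (minus strand) that overlaps no exon of the other 9 annotated Smtn transcripts. This arrangement is that described for smoothelin-A, the short form known from visceral smooth muscle, while the long smoothelin-B is known from vessels. The first 120 coding bases of Smtn-201 are given with the start codon in capitals. For Myocd, the leading transcript Myocd-203 holds a coding exon of 144 bases at chr11:65184488-65184631 (minus strand) that Myocd-202 lacks, and it is given in full. Both of these transcripts share an upstream first coding exon. The form known from cardiac muscle also has an upstream start, and its codon was not compared with theirs.
Smtn-201 start of the reading frame (chr11:3527707-3527826): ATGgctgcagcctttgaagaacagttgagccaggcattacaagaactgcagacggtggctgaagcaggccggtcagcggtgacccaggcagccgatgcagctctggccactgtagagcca
Myocd exon in Myocd-203 and not in Myocd-202: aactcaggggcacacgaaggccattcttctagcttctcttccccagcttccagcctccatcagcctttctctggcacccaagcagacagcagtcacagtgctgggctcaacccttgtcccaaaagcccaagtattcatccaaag

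All 10 genes had a mean of at least 1 TPM (a length-scaled transcript level with the same total in every library) in the gene table and in the second transcript table. Levels below are TPM of the gene table unless stated, and means are given ± SD of the 2 libraries (n = 2). Their summed TPM was 370.0 in replicate 1 and 324.9 in replicate 2. As a share of the TPM of nuclear protein-coding genes the sum was 0.0893% and 0.0907%. The sum was thus lower in replicate 2 on all annotated genes and slightly higher there among nuclear protein-coding genes. In whole tissue, fewer cells of a type and less RNA per cell cannot be told apart.

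The genes spanned from 117 TPM to 3.51 TPM, in the order Rgs5, Abcc9, Smtn, Tagln, Myocd, Pdgfrb, Notch3, Vtn, Cspg4 and Cnn1. Neighbours whose library values overlapped were Tagln and Myocd, Pdgfrb and Notch3, and Cspg4 and Cnn1. In the second table Myocd stood above Tagln and Cnn1 above Cspg4, and the values of Notch3 and Vtn overlapped there. Order within these pairs was therefore not settled by the data. The group thus runs from genes among the upper levels of the tissue, with Rgs5 at rank 474 of 22015 nuclear protein-coding genes, to Cnn1 at rank 8376.

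**Figure D1:**
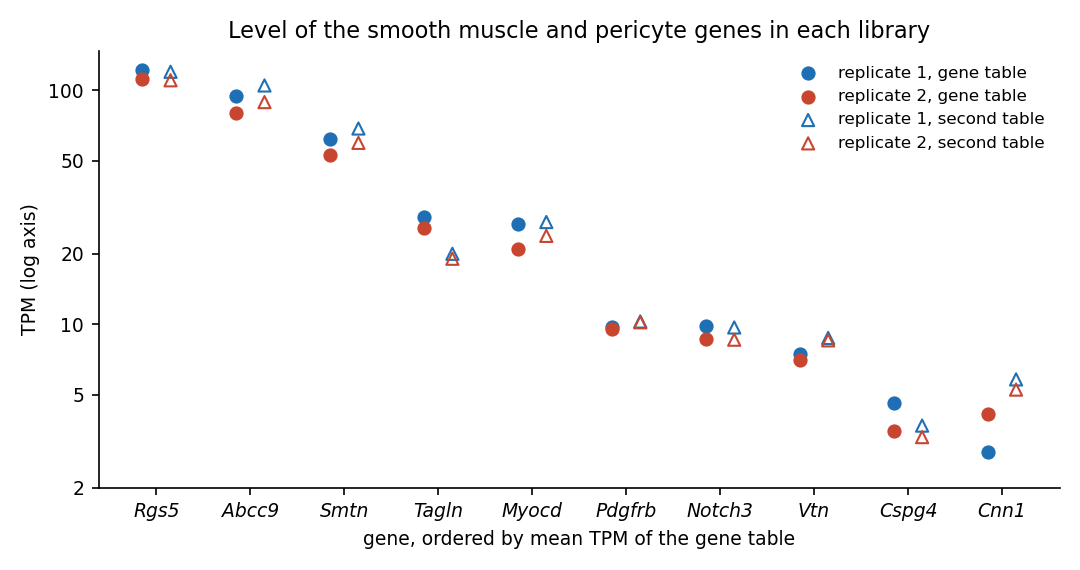
TPM (log axis) of the 10 genes in each library, with filled circles for the gene table and open triangles for the second transcript table. Rgs5 and Abcc9 lie highest, Cspg4 and Cnn1 lowest, and Tagln is the gene whose second-table values (20.0 and 19.1) lie clearly under those of the gene table (28.9 and 25.8).

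Among the contractile genes of the 10, Smtn, which encodes the actin-binding smoothelin, was the highest. It stood at 62.2 TPM in replicate 1 and 52.9 in replicate 2 (57.5 ± 6.58). Tagln, encoding transgelin (SM22 alpha), stood at 28.9 and 25.8 TPM (27.3 ± 2.17). Pcsk7 overlaps Tagln on the opposite strand, with 543 and 463 counts against 821 and 783 for Tagln. Whether the counting used strand is not given in the sources used here, so reads of such overlapping pairs, Notch3 included, may not be told apart. Cnn1, the calponin of smooth muscle, stood at 2.86 and 4.15 TPM (3.51 ± 0.912), from 121 and 113 counts. The Cnn1 TPM was thus higher in replicate 2 while its count was lower, and its deposited effective length fell from 1369 to 888 bases between the libraries. The second table put Cnn1 at 5.82 and 5.26 TPM.

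The position of each contractile gene in its own family differed. Smtn held 93.2% ± 0.0645 of the summed TPM of Smtn, Smtnl1 and Smtnl2. Tagln held 57.6% ± 4.18 of the transgelins, with Tagln2, the form of many non-muscle cells, at 23.7 and 16.6 TPM. The second table gave Tagln 45.5% and Tagln2 53.9%, so the larger of the pair depended on the quantification. Cnn1 was the least of the 3 calponins, with 11.3% ± 2.99, against 39.8% for Cnn2 and 48.8% for Cnn3, which are not confined to smooth muscle.

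**Figure D2:**
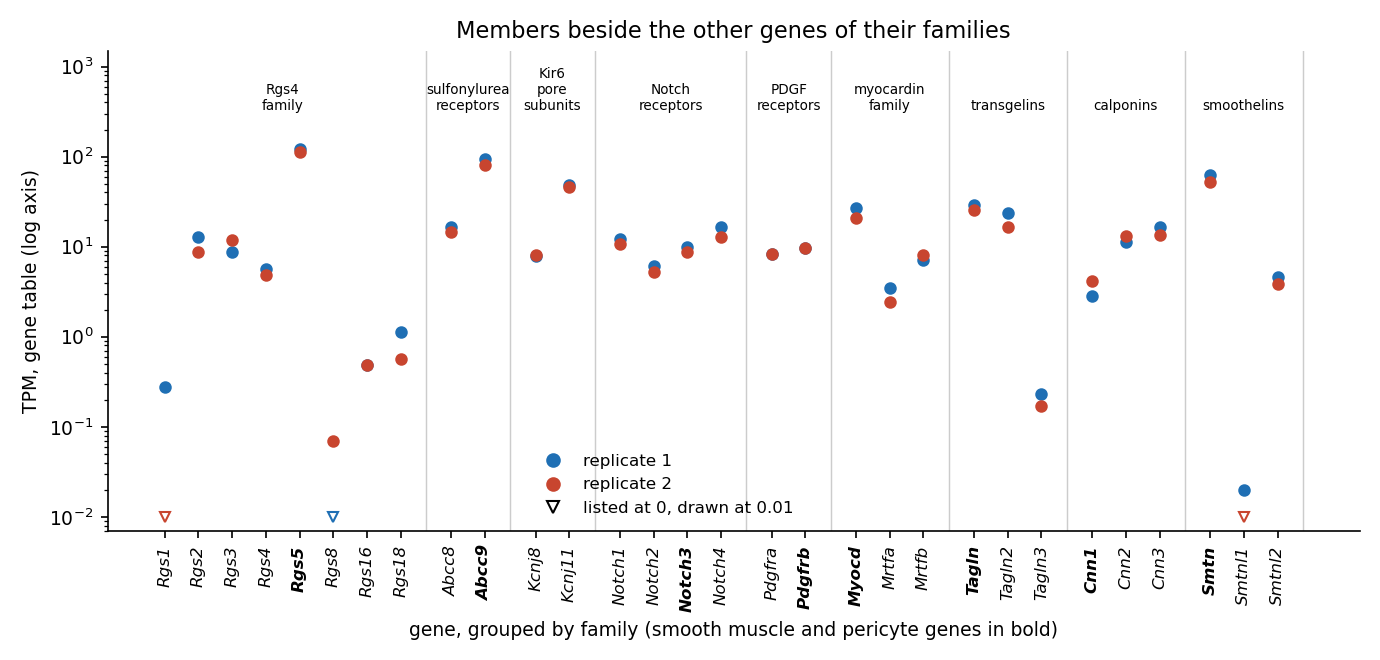
TPM of the gene table (log axis) in each library for members (bold) and the other genes of their families. Rgs5, Abcc9, Smtn, Myocd, Tagln and Pdgfrb stand above every other gene drawn in their families in both libraries. Tagln does not lead its family in the second table, which is not drawn. Notch3 lies within the range of the Notch receptors and Cnn1 below Cnn2 and Cnn3.

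Most Smtn transcript signal came from the short form. Smtn-201 was at 48.4 TPM in replicate 1 and 38.6 in replicate 2, or 77.8% and 73.1% of the gene. The 4 long coding transcripts together were at 7.76 and 8.42 TPM, or 12.5% and 15.9%. The short form was thus several times the long forms in both libraries. Which cells of the heart made either form was not tested. By counts, which long transcripts collect more readily, the long forms held 25.3% ± 4.12 of the gene. The second table gave 75.2% and 70.1% for Smtn-201, so both quantifications ranked the forms alike.

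Tagln and Cnn1 transcripts depended on the table. Tagln-201, with the full coding sequence of 603 bases, held 55.8% ± 3.84 of the Tagln TPM in the first transcript table and 99.4% in the second. The difference lay in Tagln-202, an annotated fragment of 369 bases, which was at 13.5 and 10.6 TPM in the first table and listed at 0 in both libraries of the second. Tagln-201 alone was at 15.3 and 15.1 TPM in the first table and 20.0 and 18.9 in the second. By the mean share Cnn1-201 led Cnn1 in the first table, with 53.0% and 23.4% of the gene, but in replicate 2 the 370-base fragment Cnn1-202 (36.9%) and Cnn1-204 (29.6%) stood above it. Cnn1-202 led in the second table, with 53.8% and 28.9%. At these counts the Cnn1 forms were not resolved.

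The other contractile genes of smooth muscle gave a wide range. Of 17 listed partners, 14 reached 1 TPM in both libraries, 2 were higher in replicate 2, 5 were lower and 7 did not pass the exact binomial test between the libraries, against 26.6% of all genes tested that passed (1302 higher and 1943 lower). With spike-in scaling 4 partners were higher and 3 lower, against 31.8% of all genes that passed at that scaling. Acta2, smooth muscle actin, was at 36.0 and 32.3 TPM, and Myh11, smooth muscle myosin heavy chain, at 10.1 and 10.7. The partners with the highest levels were Des (543 and 458), which encodes desmin of cardiac and smooth muscle alike, Myl6 (110 and 81.3), Acta2 and Synpo2 (29.6 and 35.4). Cnn1 and Tagln both lay below Acta2 in each library, and Smtn above it. The second table put Acta2 at 52.8 and 47.1 TPM, still under Smtn at 68.8 and 59.7.

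Myocd, which encodes the transcriptional coactivator myocardin, was at 27.0 TPM in replicate 1 and 21.02 in replicate 2 (24.0 ± 4.21). It held 69.2% ± 3.59 of the myocardin family, before Mrtfb at 22.4% and Mrtfa at 8.44%. Its partner Srf stood at 35.6 and 34.2 TPM. Srf and 9 further regulators of smooth muscle genes all reached 1 TPM in both libraries; after Srf the highest were Elk4 (31.2 and 29.8), Mef2c (21.5 and 23.7) and Klf4 (17.5 and 12.9). Myocd thus lay in the range of its partners.

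Most of the Myocd signal came from the long coding forms. Myocd-203, with 2949 coding bases, held 60.9% and 64.8% of the gene in replicates 1 and 2, and Myocd-202, with 2805, held 20.96% and 22.4%. Together they held 81.8% and 87.1% of the Myocd TPM. By counts, which long transcripts collect more readily, they took 97.6% in each library. Myocd-201, chosen for mention after its values were seen, starts inside the gene, as does the form known from smooth muscle. Whether the start codons of these 2 are the same was not tested. Myocd-201 was listed at 0 in both libraries of the first table and at 0.0918 and 0.514 TPM in the second. In the second table Myocd-203 held 76.8% ± 1.07, and Myocd-202 was down to 9.5% and 5.84%. The 144-base exon shown above was thus part of the leading transcript in both tables. Myocd-201 also has that exon, and is told from the long forms by its start.

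**Figure D3:**
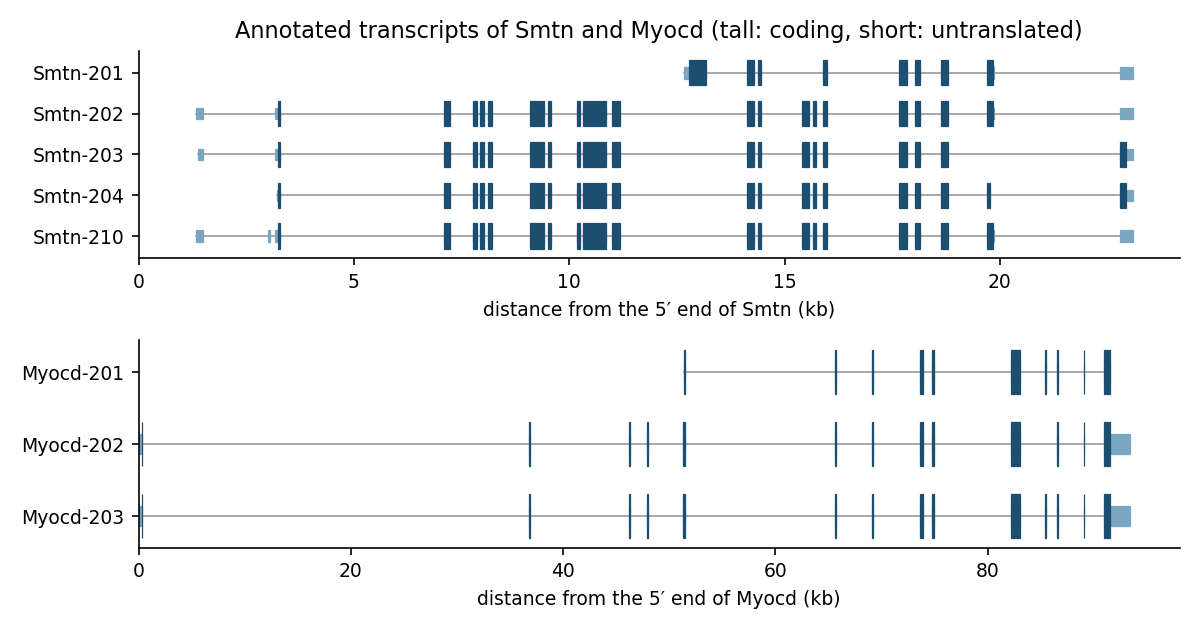
Annotated transcripts of Smtn and Myocd along the distance from the 5′ end of each gene (kb), with tall boxes for coding and short boxes for untranslated exon sequence. Smtn-201 and Myocd-201 begin inside their genes; Smtn-201 led its gene in both tables, and Myocd-201 was listed at 0 or under 1 TPM.

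Rgs5 encodes a regulator of G protein signalling that shortens the response to vasoconstrictor receptors and is a widely used pericyte marker. It was the most abundant of the 10, at 123 TPM in replicate 1 and 112 in replicate 2 (117 ± 7.495). It held 80.9% ± 0.0665 of the summed TPM of 8 related Rgs genes. Rgs4, its neighbour on chromosome 1 at a gap of 45.7 kb with no annotated gene between them, was at 5.64 and 4.83 TPM. Rgs2 was at 12.7 and 8.78 and Rgs3 at 8.65 and 11.9. Of the 7 genes beside Rgs5, 3 reached 1 TPM in both libraries. Rgs5-201 made up 99.1% of the Rgs5 TPM, so the gene was read almost wholly as 1 transcript.

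The receptors whose signals Rgs proteins damp, and other receptors and effectors of vascular tone, were all detected, 11 of 11 at 1 TPM or more in both libraries. The highest were Agtr1a, the angiotensin receptor, at 23.6 and 20.5 TPM, Adra1a (17.5 and 20.4) and Adra1b (17.7 and 16.2), which are adrenergic receptors, and Ednra, the endothelin A receptor, at 17.2 and 12.3. All 4 lay below Rgs5 in each library.

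Pdgfrb encodes the receptor through which PDGF-B holds mural cells on the vessel. It was at 9.71 TPM in replicate 1 and 9.60 in replicate 2 (9.66 ± 0.0778). Among nuclear protein-coding genes alone its TPM was 23.4 and 26.8, so the closeness of the libraries depended on the total. Pdgfb, the endothelial ligand, was at 11.8 and 10.8 TPM. Pdgfra, the related receptor of fibroblasts, was at 8.27 and 8.25, so Pdgfrb made up 53.9% ± 0.158 of the pair, and 56.8% in the second table. Pdgfa (8.74 and 6.99) and Pdgfd (5.53 and 5.51) were the other leading ligands, and all 5 genes listed beside Pdgfrb reached 1 TPM in both libraries. Pdgfc was the lowest, at 1.38 and 1.30.

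Notch3, the Notch receptor of mural cells, was at 9.86 and 8.62 TPM (9.24 ± 0.877). It held 22.6% ± 0.759 of the 4 Notch receptors, below Notch4 (35.4%) and Notch1 (27.99%), both known from endothelium, and above Notch2 (13.98%). Notch1 led in the second table with 33.7%, and Notch3 held 24.8% there. Of the ligands, Jag2 was at 15.6 and 9.89 TPM, Dll4 at 7.90 and 7.54 and Jag1, which is known to act on Notch3 in arteries, at 2.87 and 3.41. Heyl, a target of Notch3 in smooth muscle, was at 4.50 and 4.31. All 14 genes of the Notch list reached 1 TPM in both libraries. An antisense gene, Gm17276, overlaps Notch3 and was at 1.25 and 1.48 TPM.

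Cspg4 encodes NG2, a surface proteoglycan of pericytes that also marks oligodendrocyte precursors. It was at 4.62 TPM in replicate 1 and 3.49 in replicate 2 (4.06 ± 0.799). The coding transcript Cspg4-201 took 46.8% and 63.1% of it in the first table, or 2.16 and 2.21 TPM. The rest went to retained-intron transcripts, led by Cspg4-204 at 1.51 and 1.04 TPM. The second table put Cspg4-201 at 3.13 and 2.61 TPM, or 82.0% ± 4.06 of the gene. The gap between the libraries thus lay in the retained introns by the first table and in the coding transcript by the second. Of 7 markers of Schwann cells and oligodendrocyte precursors, 2 reached 1 TPM in both libraries, and the list summed to 4.53 and 4.65 TPM. Olig2, which defines oligodendrocyte precursors, was at 0 counts in both libraries, where a count of 0 allows up to 3 counts.

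Abcc9 was the second of the 10, at 95.02 TPM in replicate 1 and 80.4 in replicate 2 (87.7 ± 10.3). It held 84.9% ± 0.509 of the sum with Abcc8, which was at 16.4 and 14.7 TPM. The pore subunits gave a different picture. Kcnj8 (Kir6.1), the partner of SUR2B in vessels, was at 7.88 and 8.02 TPM, and Kcnj11 (Kir6.2), the partner of SUR2A in cardiac muscle, at 48.5 and 45.6. Kcnj11 held 85.5% ± 0.705 of the pair. Kcnj8 lies 16.2 kb from Abcc9 on chromosome 6 and Kcnj11 3.76 kb from Abcc8 on chromosome 7, with no annotated gene between either pair. The member of each gene pair that was high thus lay beside a low one.

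By transcript, the upstream end shown above was the larger part of Abcc9. Transcripts with the SUR2A end were at 64.6 TPM in replicate 1 and 48.2 in replicate 2, or 67.9% and 59.9% of the gene. Abcc9-203, with the SUR2B end, was at 28.3 and 30.5 TPM, or 29.8% and 37.9%. The SUR2A end was the larger in both libraries, and it was lower in replicate 2 while the SUR2B end was not. The second table gave the same order and the same direction, with 74.3% and 66.0% for the SUR2A end and 21.3% and 27.1% for the SUR2B end. The difference of these shares between the libraries was not tested. The split is an estimate: Abcc9-203 had 6303 expected counts in replicate 1 with a deposited posterior SD of 338. By the mean share, the leading transcript also changed with the table, from Abcc9-201 (36.9%) to Abcc9-202 (30.01%). Both have the SUR2A end. In replicate 2 alone the leaders differed from these. There Abcc9-203, with the SUR2B end, led the first table with 37.9%, against 37.5% for Abcc9-201. Abcc9-201 led the second table in that library with 30.7%, against 25.8% for Abcc9-202. The TPM of the SUR2B transcript in the first table was 3.6 and 3.8 times that of Kcnj8 in replicates 1 and 2. In the second table the gap was smaller, with 22.4 and 24.15 TPM for Abcc9-203 and 8.70 and 8.73 for Kcnj8.

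**Figure D4:**
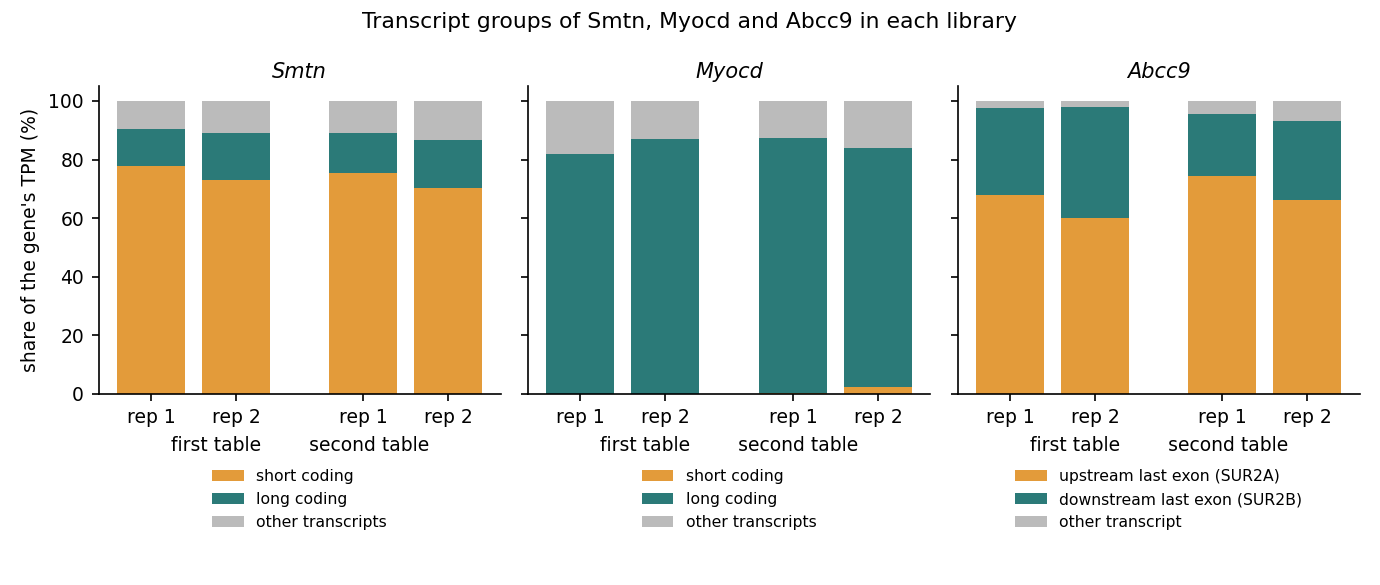
Share of each gene's TPM (%) by transcript group for Smtn, Myocd and Abcc9, per library and table. The short form leads Smtn, the long forms lead Myocd, and the SUR2A end leads Abcc9 in all 4 columns; the SUR2A share is lower in replicate 2 (59.9% and 66.0%) than in replicate 1 (67.9% and 74.3%).

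Vtn encodes vitronectin, an adhesive glycoprotein of plasma and matrix that is made by liver and is a marker of pericytes in brain. It was at 7.44 and 7.07 TPM (7.26 ± 0.262), and Vtn-201 held 89.1% of it. Of 8 liver markers, Alb and Fgb had 0 counts in both libraries, and Ahsg alone reached 1 TPM, at 3.38 and 1.29 (143 and 41 counts). The 8 summed to 3.85 TPM in replicate 1 and 1.74 in replicate 2, and any part of liver RNA in the Vtn level was not tested. Of the integrin chains that bind vitronectin or pair with its receptors, Itgb1 was at 124 and 113 TPM, Itgb5 at 36.8 and 32.95 and Itgav at 15.7 and 12.7.

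Other mural markers spanned a wider range than the 10, from Trpc6 at 0.14 and 0.05 TPM to Art3 at 240 and 226. Of 21 listed, 19 reached 1 TPM in both libraries, and their sum was 463 TPM in replicate 1 and 429 in replicate 2. Ptp4a3 (111 and 108) came next to Art3, followed by Ednra and Mcam (15.6 and 13.0). Several of these genes are also made by other cells of the heart. Markers of the other cell types summed to 228 and 224 TPM for 8 endothelial genes, 291 and 255 for 8 fibroblast genes, and 25610 and 21170 for 6 cardiomyocyte genes. Of 7 skeletal muscle markers, Acta1 alone reached 1 TPM in both libraries, and it is also made in heart.

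Between the libraries the 10 genes differed little. The comparison used the log2 ratio of counts (replicate 2 over replicate 1, library sizes scaled by TMM) and an exact conditional binomial test (two-sided, Benjamini-Hochberg adjustment over 12189 genes), which compares the libraries and not conditions. Of the 10, 2 passed an adjusted p of 0.05 and both were lower in replicate 2, against 26.6% of all genes tested, of which 1302 were higher and 1943 lower. None of the 10 was past 2-fold, against 1.67% of all genes. Their median log2 ratio was -0.04, beside -0.02 for all genes, whose quartiles were -0.14 and 0.10. The count was thus close to the background share at this setting.

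Myocd had 3468 counts in replicate 1 and 2860 in replicate 2, a log2 ratio of -0.14 (95% interval -0.21 to -0.07, exact binomial test, adjusted p = 0.000804). Abcc9 had 20121 and 17220 counts, a ratio of -0.09 (-0.12 to -0.06, exact binomial test, adjusted p = 6.92e-08). These were the 2 that passed, and both changes were small. Rgs5, with 15007 and 13594 counts, had a ratio of -0.01 within an interval of -0.04 to 0.03, the narrowest of those that did not pass. Cnn1, at the other end of depth, had a ratio of 0.04 within -0.34 to 0.42, so a difference of that size was not detectable. The intervals of Smtn (-0.15 to 0.00), Notch3 (-0.16 to 0.01), Cspg4 (-0.29 to 0.01), Tagln (-0.07 to 0.21) and Vtn (-0.22 to 0.22) all reached 0. That of Pdgfrb, at a ratio of 0.11, ran from 0.01 to 0.21, with an adjusted p of 0.0975 by the exact binomial test. Intervals cover counting error only.

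The 2 calls depended on the scaling. With library sizes from the ERCC spike-ins, Abcc9 was at 0.01 (adjusted p = 0.781, exact binomial test) and Myocd at -0.05 (adjusted p = 0.353), and Rgs5 and Pdgfrb passed instead, both higher in replicate 2. Under that scaling 31.8% of all genes passed. All 6 cardiomyocyte markers passed at both scalings, against 26.6% of all genes with TMM. Each had 64613 counts or more in both libraries. With TMM, 5 were lower in replicate 2 and 1 higher, at a median log2 ratio of -0.15 beside -0.02 for all genes. With the spike-ins, 3 were lower and 3 higher, at -0.06 beside 0.08 for all genes. The median of the markers was thus below that of all genes under both scalings. Both Myocd and Abcc9 are also made by cardiac muscle, and the part of that difference in their ratios was not tested.

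**Figure D5:**
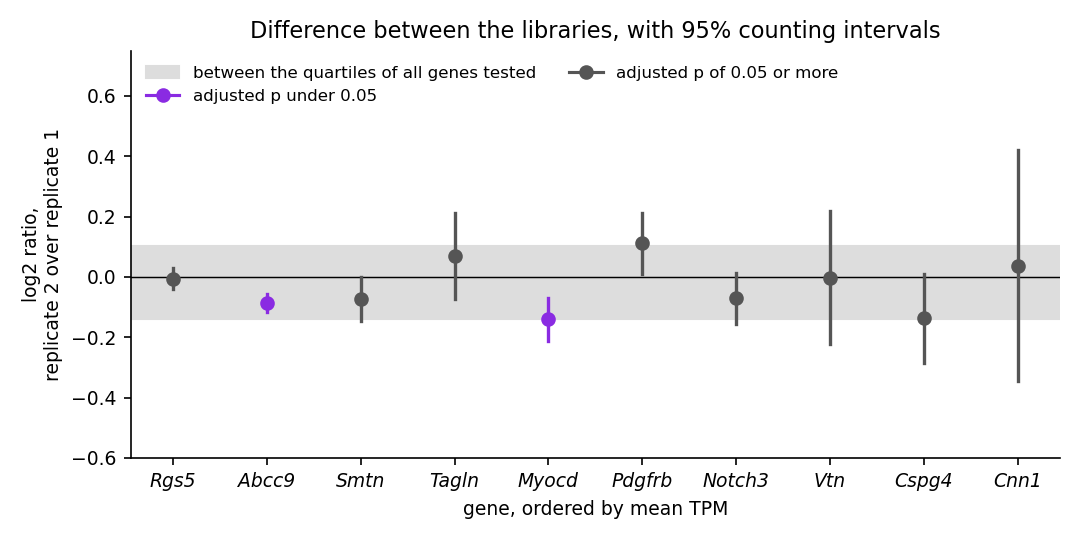
Log2 ratio of replicate 2 over replicate 1 for each gene, with 95% counting intervals, TMM scaling and a grey band between the quartiles of all 12189 genes tested. The points lie between -0.14 and 0.11, and Abcc9 and Myocd are the ones with an adjusted p under 0.05.

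Promoter windows from RefSeq (GRCm38.p6, 250 bases before to 50 after the start) were matched for 7 of the 10 genes, and not for Tagln, Myocd and Pdgfrb. Neither the CArG box, the site of serum response factor, nor GTGGGAA, a site of the Notch factor RBPJ, was found on either strand of these 7 windows. The Smtn window lay at the start of the long forms, with its 250 bases before the start at chr11:3539293-3539542. The start of Smtn-201, at chr11:3527937, was thus not searched. The CArG box was in 1.63% of 32851 windows of all genes, and GTGGGAA in 6.38%. Of 17 windows of the contractile partners, 3 held a CArG box, those of Myl9, Cnn2 and Myl6. A window without these letters says nothing of sites elsewhere at the gene.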

How the data were processed

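Total RNA-seq of heart was deposited for 2 libraries of 1 group. Per the deposited file list, the authors made the expected counts and TPM of the gene table and first transcript table from transcriptome alignments to mm10 with GENCODE M21. The estimated counts and TPM of the second table were deposited as made from reads and an index. A posterior SD of each count was deposited with the first. Tools and versions are not given in the sources used here. Entries that are no annotated gene, mostly spike-ins (0.500% and 0.444% of counts), entered no library size or test.

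Counts were rounded. Log2 ratios used TMM (edgeR 4.0.16, R 4.3.3) and a prior count of 2. The exact conditional binomial test (SciPy 1.17.1) covered the 12189 genes whose mean TPM reached 1, at an adjusted p of 0.05. It was tried on counts simulated with counting error alone, so that trial does not show its rate of false calls in these libraries. P-values measure only the difference between these samples. Alternatives were DESeq2 1.42.0 size factors, total and spike-in counts, the second table, other filters and a prior count of 0.5.

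Members and gene lists were chosen with earlier results of these data known. Named genes were the 10, up to 4 of highest mean TPM per list, a set of partners, and transcripts with at least 20% of their gene; family relatives, overlapping genes, other markers and Cnn1-204 were chosen after their values were seen. A gene that the rule names is not reported here.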

Additional observations from a re-analysis of the deposited data

How the results depend on the processing

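Of the 10 genes, 2 passed the exact binomial test with TMM, DESeq2 size factors, no filter on TPM, or a mean TPM of at least 5 (8 of them tested). Of all genes, 26.6%, 27.07%, 13.2% and 35.3% passed in these settings, in that order. The count of the 10 was 6 with total counts of annotated genes, adding Smtn, Rgs5, Notch3 and Cspg4, against 34.2% of all genes. It was 3 in the second table, adding Smtn (adjusted p = 0.0309, exact binomial test), against 27.96%. With spike-in scaling it was 2 against 31.8%, but these were Rgs5 and Pdgfrb, and the genes' median log2 ratio moved from -0.04 to 0.056 (all genes, -0.02 to 0.08). Under that scaling Rgs5 changed sign to 0.0889 and passed, while Abcc9 changed sign to 0.00694 and no longer passed. Smtn (0.0222), Notch3 (0.0231) and Vtn (0.0915) changed sign there too, without passing. None of the 10 passed 2-fold under any setting run. The cause of the differences between scalings was not tested. Over 50 alternative log2 ratios, 41 kept their side of the threshold, 7 became called and 2 lost their call. The summed TPM was 347 ± 31.9, 359 in the second table, and 325 and 370.0 without replicate 1 or 2. Of the 10 levels, 5 moved by more than 1 SD in the second table, and of the 10 leading transcript shares 6 did. No paired analysis was possible because the libraries form 1 group. With n = 2 and the counts of Cnn1 and Vtn, small differences were not detectable.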
